A study of Mus musculus with 58 samples.

Results

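Endogenous-only sites of PSPC1 were described across 9 peak lists of chromatin immunoprecipitation followed by sequencing (ChIP-seq) in mouse embryonic stem cells. PSPC1 is a nuclear RNA-binding protein of the same family as NONO and SFPQ. It is a component of paraspeckles, the nuclear bodies that assemble on the long noncoding RNA Neat1, and it has been linked to transcription and RNA processing. An endogenous-only site is a region with a peak in both lists of knock-in PSPC1, which carries its tag in its own gene, with no peak in any of 7 lists of overexpressed proteins, and with a width below 5000 bp. The 9 lists merged into 67384 regions when peaks sharing at least 1 bp were joined. Of these, 1911 met the rule, 2.84% of all regions. They comprised 546 regions of chromosome 1, where 6.34% of all regions met the rule, and 1365 regions of other chromosomes, where 2.32% did. The sites were chosen by the presence and absence of the authors' peaks, so their presence in the knock-in lists and their absence from the others are not results.

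The series holds 58 samples, of which 49 were not analysed here. Both knock-in libraries came from AID-FB(KI)-PSPC1 cells built from the CJ9 line, with no treatment, and their chromatin was fixed with 3% formaldehyde. The other 7 libraries came from cells built from BirA J1 cells, which carry the biotin ligase BirA, and each overexpressed 1 FB-tagged protein, again with no treatment. CIRH1A, UTP3 and UTP6 are factors of early ribosome assembly, and their cells had the same fixation as the knock-in cells. For overexpressed PSPC1 the formaldehyde was at 1%. hnRNPU, SAFB and SAFB2 bind RNA and nuclear scaffold, and here 2 mM of the protein crosslinker DSP preceded 1% formaldehyde, with a streptavidin purification added. All 9 immunoprecipitations used 5 µg of FLAG antibody, and the labels give the strain 129/Ola throughout. The labels do not say whether a line is a single clone or whether the knock-in libraries came from separate cultures. Endogenous and overexpressed proteins therefore differed in parental line, and part of them in fixation and purification. Of the 7 overexpressed proteins, 6 were proteins other than PSPC1. The contributions of protein level, protein identity, line, fixation and purification to the sites cannot be told apart. The lists hold no expression values, so the cell type could not be checked against markers.

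Each overexpressed protein had 1 library. The knock-in group had 2, and an exact two-sided permutation test over 2 libraries cannot give a p below 0.5, so no test was run and differences below are given with 95% Wilson intervals. These cover counting error only, because regions of a library are not replicates of a condition. A peak list gives no read depth, so the number of peaks a library could reach is unknown. Deposited knock-in scores started at 30.0 in either library and those of the 7 remaining lists at 50, and the unit of the score is not stated. Weak knock-in peaks thus had no counterpart of the same score in the lists that had to be empty.

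Regions below 5000 bp with a peak in both knock-in lists numbered 9245, of which 20.7% were endogenous-only. The remaining 7334 also held a peak of at least 1 of the 7 other lists, and are called shared sites. A further 11298 regions below 5000 bp had a peak in 1 knock-in list and in none of the other 7, and are called single-list regions. Most endogenous-only sites were simple. Of the 1911, 1780 were made of 1 peak from each knock-in list, and the other 131 held up to 3 peaks of a list. Another 65 regions matched the rule except for a width of at least 5000 bp, 16 of them on chromosome 1. On the width limit, the 2 widest sites inside were chr7:50383126-50388110 at 4985 bp and chr8:72604484-72609409 at 4926 bp, and the 2 narrowest outside were chr8:87137682-87142727 at 5046 bp and chr1:85304466-85309565 at 5100 bp.

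Endogenous-only sites made up a larger part of the knock-in regions on chromosome 1 than elsewhere. On chromosome 1, 546 of 1653 knock-in regions were endogenous-only, a share of 33.0% (30.8 to 35.3%). On all other chromosomes and unplaced sequences, 1365 of 7592 were, a share of 18.0% (17.1 to 18.9%). The intervals did not overlap. The share of chromosome 1 among the endogenous-only sites was 28.6% (26.6 to 30.6%), against 15.1% (14.3 to 15.9%) among the shared sites and 12.8% among all merged regions. Single-list regions resembled the endogenous-only sites in this respect, with 30.6% (29.7 to 31.4%) on chromosome 1. The counts depended on the lists used. Without the UTP6 list, the longest of the 7, the sites off chromosome 1 rose in number to 2081, or 27.3% of the knock-in regions there, and those on chromosome 1 to 749, or 45.1%. When 1 knock-in list was left out and all peaks of the other counted, the numbers were 2407 without replicate 1 and 2460 without replicate 2 on chromosome 1, and 6289 and 4985 elsewhere. The corresponding shares were 58.4 and 62.8% on chromosome 1 and 35.7 and 37.0% elsewhere.

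The 2 knock-in libraries were also read separately, peak by peak. In replicate 1, 59.8% (58.3 to 61.2%) of the 4137 peaks on chromosome 1 overlapped no peak of the other 7 lists, against 35.1% (34.3 to 35.9%) of the 14318 peaks elsewhere. In replicate 2 the shares were 55.4% (53.9 to 56.8%) of 4355 and 34.0% (33.4 to 34.7%) of 18571. The chromosome 1 share was higher in both libraries, by 24.7 and 21.3 percentage points, a mean of 23.0 ± 2.37 (SD, n = 2). Chromosome 8, part of the peaks elsewhere and picked after its value was seen, was high as well. It gave 58% (55.4 to 60.5%) in replicate 1, with an interval that overlapped that of chromosome 1. In replicate 2 it gave 49.8% (47.4 to 52.3%), below chromosome 1. The libraries share the same 7 lists for this comparison.

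Other chromosomes were not uniform. Chromosome 8, singled out after its value was seen, had 149 endogenous-only sites among 508 knock-in regions, 29.3% (25.5 to 33.4%). Its interval overlapped that of chromosome 1. The highest of the remaining 17 autosomes was chromosome 19 at 22.6% (17.9 to 28.2%), whose interval overlapped that of chromosome 8. Those autosomes had a median of 17.2% and a lowest value of 10.3% on chromosome 13. Chromosome X reached 30.9%, but from 38 of 123 regions and with an interval of 23.4 to 39.5%. Off chromosomes 1 and 8 together, the share was 17.2% (16.3 to 18.1%). Of the 27 endogenous-only sites on unplaced sequences, 15 were on chr1_random and 8 on chr8_random, where the knock-in regions numbered 25 and 10.

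**Figure D1:**
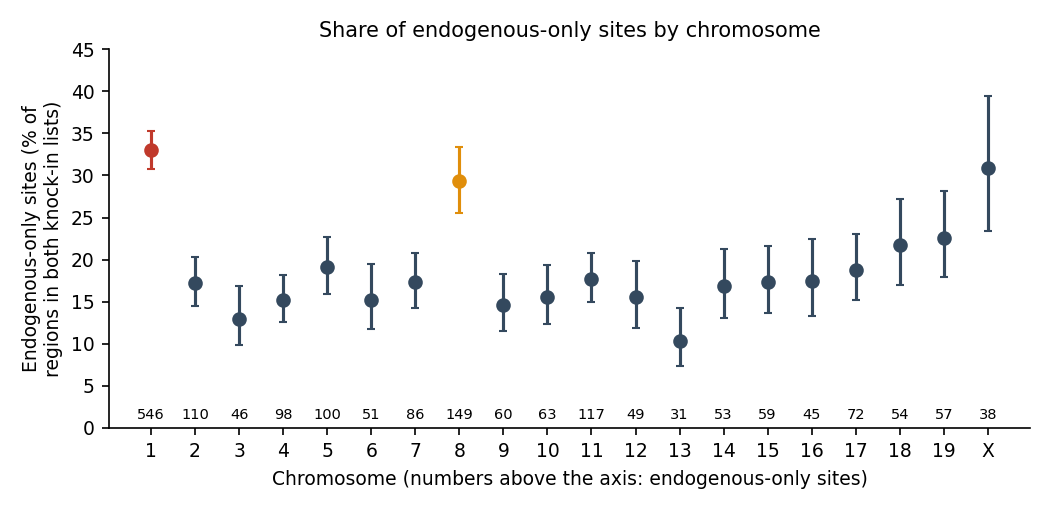
Endogenous-only sites as a percentage of the regions below 5000 bp found in both knock-in lists (y axis), by chromosome (x axis). Points are shares, bars are 95% Wilson intervals and the numbers above the axis are counts of sites. Chromosome 1 (33.0%) and chromosome 8 (29.3%) lie above the other autosomes, and chromosome X (30.9%) has a wide interval.

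Peak density differed between these chromosomes as well. Chromosome 1 had 2.77 endogenous-only sites per Mb, chromosome 8 had 1.13, and the remaining autosomes had 0.258 to 0.960. Knock-in peaks, both libraries summed, numbered 43.1 per Mb on chromosome 1 and 23.7 on chromosome 8, against 9.00 to 22.6 on the remaining autosomes. The peaks of the 7 other lists numbered 51.9 and 58.7 per Mb on these chromosomes, against 34.9 to 58.4. On chromosome X the figures were 0.228 sites, 3.25 knock-in peaks and 20.4 other peaks per Mb. The part of knock-in peak density in the share of endogenous-only sites was not tested.

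Endogenous-only sites scored lower than shared sites and near the middle of the knock-in lists. Their median was 55.4 in replicate 1 and 58.4 in replicate 2, with a range of 30.0 to 3100 and 30.0 to 2463. The shared sites had medians of 82.7 and 97.9. Over all peaks of a list the medians were 52.6 and 53.6, and 54.1 and 55.7% of the endogenous-only sites scored above them. Between chromosome 1 and the rest, the medians of endogenous-only sites were close, at 54.5 and 55.9 in replicate 1 and 57.9 and 58.8 in replicate 2. The upper part of the distribution was not. The 90th percentile of the score was 121 on chromosome 1 and 160 elsewhere in replicate 1, and 129 and 162 in replicate 2. A score of at least 50 in both lists was found at 36.6% (32.7 to 40.8%) of the sites on chromosome 1 and 43.2% (40.6 to 45.9%) of the others, against 60.1% of all knock-in regions. Another 430 sites, 22.5% of the 1911, scored under 50 in both lists, below the lowest score of the lists that had to be empty. Of all knock-in regions 12.3% did, and of the shared sites 9.64% (8.99 to 10.3%).

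The share of endogenous-only sites was therefore given by score. The 9245 knock-in regions were split into 5 parts by their mean score rank over both lists. In the part with the highest scores, 11 of 243 regions on chromosome 1 were endogenous-only, 4.53% (2.55 to 7.92%), and 97 of 1606 elsewhere, 6.04% (4.98 to 7.31%). The difference was within the intervals. In the next part the shares were 20.9% (16.9 to 25.6%) on chromosome 1 and 12.7% (11.1 to 14.5%) elsewhere, with like median scores of 111 and 137 in replicates 1 and 2 on chromosome 1 and 114 and 131 elsewhere. The following parts gave 30.9 and 18.1%, then 42.1 and 22.6%. The part with the lowest scores gave 56.7% (51.4 to 61.7%) and 31.4% (29.1 to 33.8%). The chromosome 1 share lay above the other in the 4 parts with lower scores, and the intervals did not overlap in any of these 4. With knock-in peaks of a score of at least 50 alone, 201 sites on chromosome 1 were left and 596 elsewhere, 21.2% (18.7 to 23.9%) and 12.8% (11.9 to 13.8%) of the knock-in regions. Chromosome 8 reached 54.7% (46.7 to 62.5%) in the lowest part and 5.95% (2.57 to 13.2%) in the highest. In the parts between, from higher to lower scores, it gave 18.2% (10.7 to 29.1%), 22.2% (15.6 to 30.6%) and 26.9% (18.9 to 36.7%). The intervals of these middle parts overlapped those off chromosome 1. In the last of them chromosome 8 lay below chromosome 1, at 42.1% (37.2 to 47.2%).

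**Figure D2:**
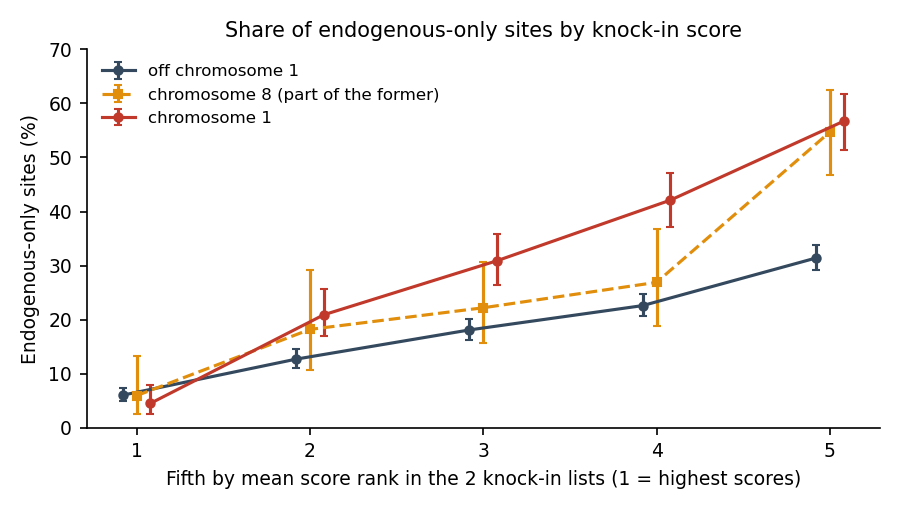
Endogenous-only sites as a percentage of knock-in regions (y axis) in 5 parts ranked by score, the highest scores at 1 (x axis), with 95% Wilson intervals. The share rises toward low scores, to 56.7% on chromosome 1, 54.7% on chromosome 8 and 31.4% off chromosome 1, and is 4.53 to 6.04% in the highest part.

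The peaks of the 2 libraries agreed less well at endogenous-only sites than at shared sites. Among sites with 1 peak per library, 78.3% (76.3 to 80.2%) of the endogenous-only pairs overlapped reciprocally by at least 50%, against 91.6% (90.9 to 92.2%) of the shared pairs. Endogenous-only pairs overlap by the rule, while shared pairs were counted only where the 2 knock-in peaks overlapped each other. Leaving out the other shared pairs can raise the agreement at shared sites, here and in the comparisons of pairs below. On chromosome 1 the share of endogenous-only pairs was 68.4% (64.1 to 72.4%), and elsewhere 82.0% (79.8 to 84.0%). The midpoints of the paired peaks lay 354 bp apart on chromosome 1 and 225 bp apart elsewhere, as medians. At shared sites the offsets were 247 and 181 bp. Endogenous-only peaks were narrower, with median widths of 1490 and 1380 bp in replicates 1 and 2 against 1857 and 1865 bp at shared sites. A wider peak has more bases that can overlap another list, so width is tied to the rule, to an extent not tested. Across endogenous-only sites the log2 scores of the libraries had a Pearson's r of 0.461 over 484 sites on chromosome 1 and 0.682 over 1296 sites elsewhere. Spearman's rho was 0.292 and 0.493. Shared sites gave r = 0.763 and 0.843. These are descriptions across regions, which share the same 2 libraries and were selected for a peak in each, and the range of scores is narrower at endogenous-only sites. Replicate 1 had the higher score at 47.9% (45.6 to 50.1%) of the endogenous-only sites, against 42.9% (41.7 to 44.0%) of the shared sites.

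**Figure D3:**
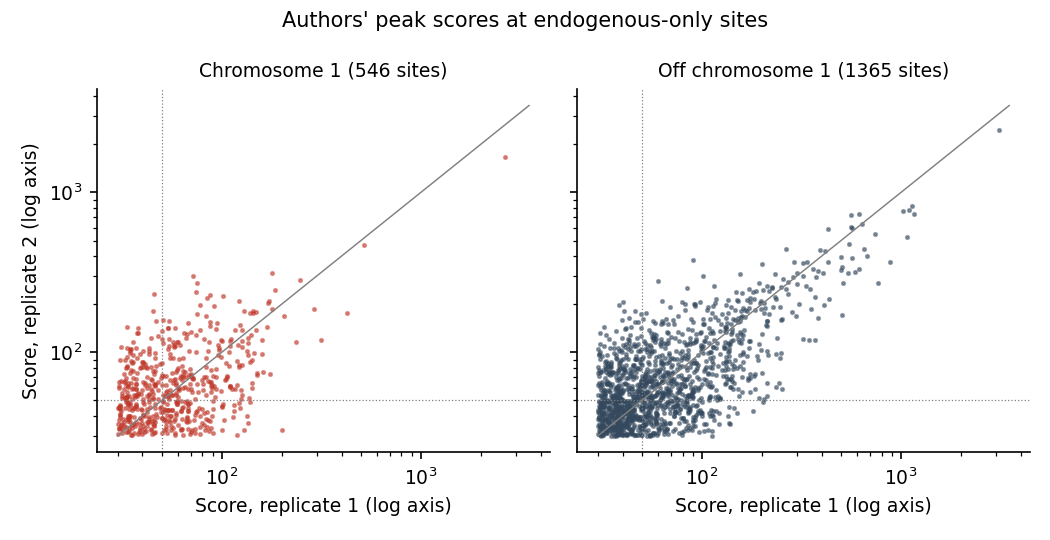
Authors' score of each endogenous-only site in knock-in replicate 1 (x axis) and replicate 2 (y axis), both on log axes, for chromosome 1 and for all other sequences. The grey line marks equal scores and dotted lines mark a score of 50; most points lie near the lower left corner, and the highest on each panel are the leading sites at 2657 and 1666 (chromosome 1) and 3100 and 2463 (elsewhere).

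High-scoring sites with no peak of the 7 lists were few. Only 7 of the 370 knock-in regions that ranked among the highest 1000 peaks of both lists were endogenous-only, 1 of them on chromosome 1. Among the highest 5000 of both lists, 216 of 2690 were, 36 of them on chromosome 1. The leading sites are named here by mean score rank, which is a description, since the same scores brought them into the lists.

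Off chromosome 1 the leading site was chr12:54346714-54350823, 4110 bp wide. It scored 3100 in replicate 1 and 2463 in replicate 2, ranks 12 and 342. In replicate 1, 314 peaks scored 3100 or more, many of them tied at 3100. Tied peaks take the best rank, so rank 12 is the highest place this site could hold. The 2 peaks covered almost the same bases, from 54346714 to 54350724 and from 54346749 to 54350823. The nearest other peak was one of overexpressed PSPC1 at 2483 bp, followed by UTP6 at 3391 bp. The other 5 proteins were at least 212455 bp away. The site chr6:52222311-52227160 followed with scores of 1143 and 819, and its nearest peak was one of hnRNPU at 6145 bp. At chr6:6803552-6807680 the scores were 1101 and 774, and peaks of SAFB and overexpressed PSPC1 lay 1848 and 1922 bp from its edge. The site chr15:7346891-7349738 scored 1169 and 732 and was more isolated, with its nearest peak of the 7 lists at 29845 bp. From that distance up to 32695 bp, UTP6, hnRNPU, overexpressed PSPC1, SAFB and SAFB2 each had a peak. The fifth, chr9:89511727-89513916, scored 1027 and 766, with hnRNPU, UTP6 and overexpressed PSPC1 at 3472, 3631 and 4204 bp.

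On chromosome 1 a single site stood far ahead. It lay at chr1:19092944-19096420 and scored 2657 in replicate 1 and 1666 in replicate 2. UTP6 had a peak at 3237 bp, SAFB at 22435 bp and overexpressed PSPC1 at 69927 bp. The site chr1:123072152-123076079 scored 516 and 468, and peaks of UTP3, UTP6, overexpressed PSPC1 and CIRH1A lay between 23140 and 23973 bp from it. The remaining 3 leading sites had lower scores. At chr1:74426004-74428968 the scores were 247 and 284, with peaks of UTP6, CIRH1A, UTP3 and overexpressed PSPC1 at 2980 to 4147 bp. The site chr1:59455724-59459114 scored 428 in replicate 1 and 176 in replicate 2, and its nearest peak was one of overexpressed PSPC1 at 3590 bp. At chr1:184432426-184437305 the scores were 178 and 315, and the same 4 proteins had peaks at 562 to 970 bp. In 3 of the 5 leading sites on each side, a peak of overexpressed PSPC1 thus lay within 5000 bp. Over all endogenous-only sites, the distance to such a peak had a median of 11224 bp and a lower quartile of 4224 bp. The leading sites are few and were picked by score, so a difference from the rest was not tested.

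Most endogenous-only sites lay close to a peak of the 7 lists. The median distance from the edge of a site to the nearest peak of the 7 lists was 4216 bp on chromosome 1 and 5085 bp elsewhere. Within 10 kb, 78.2% (74.6 to 81.5%) of the sites on chromosome 1 and 69.7% (67.3 to 72.1%) of the others had such a peak. Single-list regions, the background for this distance, had one at 63.9% in all, at 62.1% (60.5 to 63.7%) on chromosome 1 and at 64.6% (63.6 to 65.7%) elsewhere. The share within 10 kb was thus higher at endogenous-only sites than at single-list regions, on chromosome 1 and off it. In an alternative chosen after seeing the data, it was also higher when overexpressed PSPC1 was not counted and the 6 other proteins were, at 76.4% (72.6 to 79.7%) against 60.9% (59.3 to 62.5%) on chromosome 1 and 65.6% (63.1 to 68.1%) against 61.9% (60.8 to 63.0%) elsewhere. Within 50 kb these 6 proteins were near 99.5 and 95.2% on chromosome 1, but off it the order was the other way, at 93.6% (92.1 to 94.7%) of endogenous-only sites and 94.1% (93.5 to 94.6%) of single-list regions, with intervals that overlapped. Single-list regions were narrower, with a median width of 1098 bp against 1943 bp, and the part of width in this difference was not tested. Within 1000 bp the shares were close, at 11.2 and 11.1% for endogenous-only sites and 10.4 and 11.1% for single-list regions. Without the UTP6 list, 59.4% of the sites on chromosome 1 and 52.4% of the others had a peak within 10 kb.

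**Figure D4:**
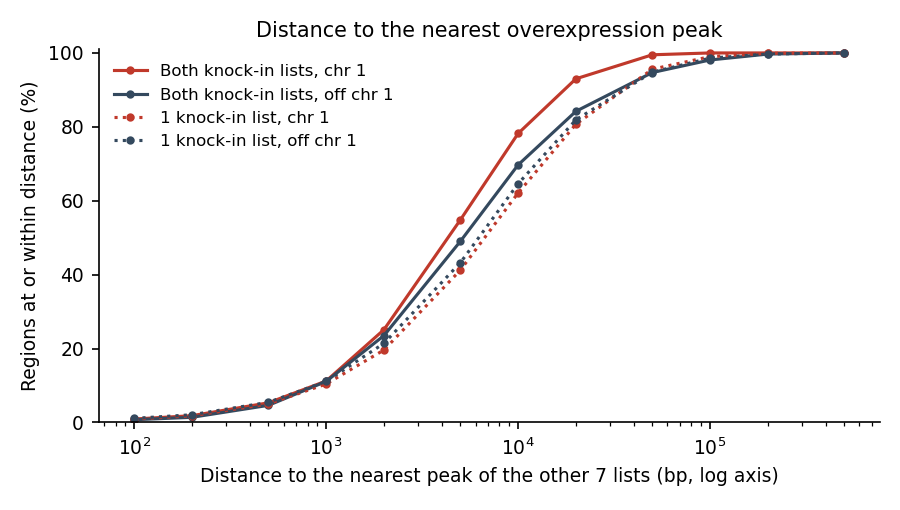
Percentage of regions (y axis) with a peak of the 7 other lists at or within a distance from the edge (x axis, bp, log scale), for endogenous-only sites (both knock-in lists) and single-list regions. At 10 kb the endogenous-only sites of chromosome 1 reach 78.2% and those elsewhere 69.7%, against 62.1 and 64.6% of single-list regions.

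UTP6 supplied most of the nearest peaks. It was the nearest list for 1188 of the 1911 sites, 62.2% (60.0 to 64.3%), while it held 35% of the peaks of the 7 lists. Overexpressed PSPC1 was nearest for 12.6% (11.2 to 14.2%) with 19.8% of the peaks. UTP3 was nearest for 9.42%, SAFB for 5.6%, hnRNPU for 5.44%, CIRH1A for 2.41% and SAFB2 for 2.35%. All 6 shares other than that of UTP6 were below the list's share of peaks. Each site was given a single nearest list, so the high share of UTP6 left less for the others. The 6 lower shares are therefore not independent of that of UTP6. The rule also removed regions touched by a peak of any of the 7 lists, and its effect on these shares was not tested. Lists of different length and protocol are compared here, so the order also carries their depth. The nearest list was not determined for single-list regions, so these shares have no background and are not shown to be particular to endogenous-only sites.

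Protein by protein, a peak of overexpressed PSPC1 lay within 10 kb of 46.7% (42.6 to 50.9%) of the sites on chromosome 1 and 46.6% (44.0 to 49.2%) of the others. Single-list regions had one at 32.2% (30.7 to 33.8%) and 35% (33.9 to 36.0%). Endogenous-only sites were therefore more often close to an overexpressed PSPC1 peak than single-list regions, on chromosome 1 and elsewhere. That none held such a peak is the rule itself. Single-list regions were narrower and had a peak in only 1 knock-in list, and the part of either in this difference was not tested. For UTP6 the shares were 73.6% on chromosome 1 and 60.0% elsewhere, against 56.7 and 57.5% of single-list regions, and the intervals overlapped off chromosome 1. UTP3 gave 42.1 and 26.9% against 29.4 and 22.3%, and CIRH1A 28.0 and 19.2% against 19.1 and 15.8%. hnRNPU gave 16.8 and 15.2% against 14.2 and 12.8%, with intervals that overlapped. SAFB and SAFB2 were rarely near. SAFB lay within 10 kb of 12.8% (10.3 to 15.9%) of the sites on chromosome 1 and 7.03% (5.79 to 8.51%) elsewhere, against 10.7 and 7.77% of single-list regions. SAFB2 did so for 7.51 and 4.18%, against 6.63 and 5.31%. The intervals of SAFB and SAFB2 overlapped those of the single-list regions on chromosome 1 and elsewhere. Off chromosome 1 the median distances to hnRNPU, SAFB and SAFB2 were larger at endogenous-only sites, at 56677, 102507 and 158846 bp against 55770, 96977 and 148598 bp at single-list regions, and on chromosome 1 that to SAFB2 was, at 121400 against 111226 bp.

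The closest and the most remote sites show the range. At chr1:173115293-173117333, scored 73.0 and 37.5, a SAFB peak began or ended 6 bp from the edge, with UTP6 at 155 bp. At chr12:81794783-81796656, scored 38.9 and 86.9, an hnRNPU peak lay 11 bp away. Just outside the rule, 2 regions were kept out by an overlap with a UTP6 peak alone, of 23 bp at chr7:121085826-121088549 and of 45 bp at chr15:102040936-102043477. A peak of the 7 lists lay within 50 kb of 96% (95.1 to 96.8%) of endogenous-only sites and 95% (94.6 to 95.4%) of single-list regions, with intervals that overlapped. Far from other peaks, 76 endogenous-only sites had none within 50 kb, 3 of them on chromosome 1 and 10 on chromosome X. Their median scores were 66.4 in replicate 1 and 63.8 in replicate 2. Chosen after its value was seen, the most remote site of chromosome 1 was chr1:158774396-158777174 at 74358 bp, and that of the other chromosomes was chr5:9724672-9726670 at 316386 bp. Their scores in replicates 1 and 2 were 43.7 and 45.4, and 38.4 and 66.7.

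Regions that a single further list kept out of the set differed by list. UTP6 alone kept out 905 knock-in regions and overexpressed PSPC1 alone 600, while the other 5 lists alone kept out 11 to 75 each. Of those held by overexpressed PSPC1 alone, 7.17% (5.36 to 9.51%) were on chromosome 1, against 15.1% (14.3 to 15.9%) of all shared sites and 28.6% of the endogenous-only sites. Of those held by UTP6 alone, 22.0% (19.4 to 24.8%) were. Their knock-in scores also differed. Regions with overexpressed PSPC1 alone had medians of 108 and 115 in replicates 1 and 2, and those with UTP6 alone had 60.3 and 67.8, against 55.4 and 58.4 at endogenous-only sites. When the overexpressed PSPC1 list was left out, 23.4% of the sites were on chromosome 1.

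The share of chromosome 1 did not fall steadily with the number of other lists. From 28.6% among the 1911 regions with none, it was 17.1% (15.3 to 19%) with 1 list and 11.1% (9.69 to 12.8%) with 2. It was 12.5% with 3, 14.9% with 4 and 17.7% with 5 lists. With 6 lists it was 27.0% (21.9 to 32.8%) of 252 regions, and with all 7 it was 28.2% (20.4 to 37.5%) of 103 regions. The share of chromosome 8 was 7.80% (6.68 to 9.09%) with no other list and 4.04 to 4.78% with 1 to 4 lists, and its interval with no other list lay above those with 1 to 4. With 5, 6 and 7 lists it was 7.10% (5.64 to 8.90%), 9.13% (6.16 to 13.3%) and 5.83% (2.70 to 12.1%), and these intervals overlapped that with no other list.

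**Figure D5:**
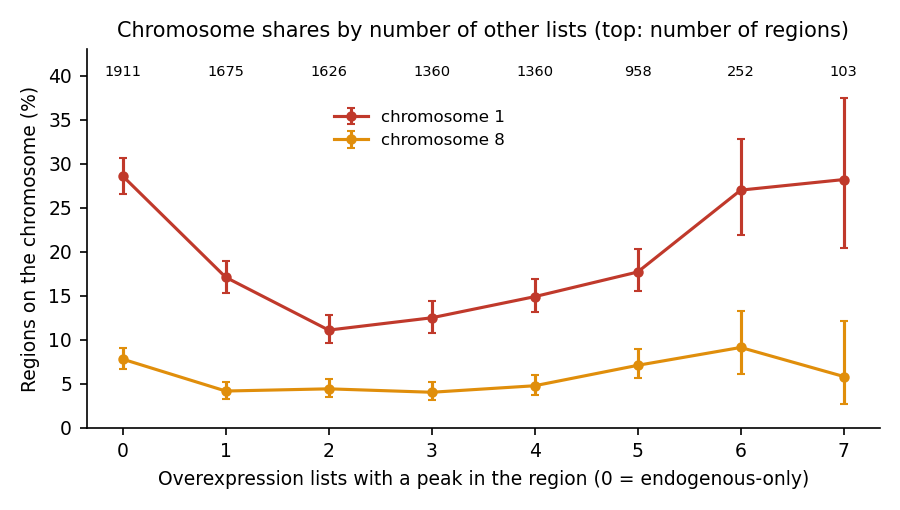
Share of knock-in regions on chromosome 1 and on chromosome 8 (y axis, % with 95% Wilson intervals) by the number of overexpression lists with a peak in the region (x axis); counts of regions stand on top. Chromosome 1 is at 28.6% with no other list, 11.1% with 2 and 28.2% with 7.

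Some endogenous-only sites lay near each other. On chromosome 1, 176 of 546 sites, 32.2% (28.5 to 36.3%), had another endogenous-only site within 10 kb. Elsewhere 233 of 1365 did, 17.1% (15.2 to 19.2%). Over all 9245 knock-in regions, a denser set, 28.6% had another knock-in region within that distance, 47.1% of those on chromosome 1 and 24.6% of those elsewhere. A shared site lay within 10 kb of 45.4% (41.3 to 49.6%) of the endogenous-only sites on chromosome 1 and of 32.7% (30.3 to 35.3%) of those elsewhere. Sites linked at up to 10 kb formed 53 pairs and 21 larger groups on chromosome 1, and 86 pairs and 16 larger groups elsewhere. Sites were present in 100 of the 198 windows of 1 Mb on chromosome 1. The 20 windows with 10 or more sites held 284, or 52.0% of the sites of that chromosome. The same windows, which were picked by their endogenous-only sites, held 361 of the 1107 shared sites there, 32.6%, and 39.0% of all knock-in regions there. Shared sites were present in 165 of the 198 windows. Off chromosome 1, 8 windows had 10 or more.

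The fullest windows held endogenous-only and shared sites side by side. On chromosome 1, the window from 135000001 to 136000000 had 24 endogenous-only sites among 51 knock-in regions, and 139 peaks of the 7 lists. Scores of these 24 ran from 31.4 to 174 in replicate 1 and from 31.2 to 196 in replicate 2. The window from 74000001 to 75000000 had 22 among 47, and that from 137000001 to 138000000 had 21 among 53. Off chromosome 1 the fullest was chromosome 18 from 38000001 to 39000000, with 18 among 34. Chromosome 8 from 122000001 to 123000000 had 14 among 33, with low median scores of 41.6 and 45.1.

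Among the 6 windows named here, that of chromosome 16 had the closest spacing. In the window from 35000001 to 36000000, 14 of 22 knock-in regions were endogenous-only, and all 14 lay between 35479267 and 35624973. Their median spacing was 2205 bp, against 17900 to 34837 bp in the other 5 windows. The group chr16:35479267-35520398, singled out after its value was seen, linked 9 sites, the most of any group, and the largest group on chromosome 1, chr1:135151507-135172258, linked 5. The highest score in this chromosome 16 group was 213 in replicate 1, at chr16:35496218-35499931, where replicate 2 scored 64.1. The highest in replicate 2 was 199, at chr16:35481912-35486740, where replicate 1 scored 38.2. The libraries thus did not rank these neighbours alike. Toward its right end, chr16:35514595-35516933 was 23008 bp from any peak of the 7 lists, and at its left part chr16:35492489-35494012 was 956 bp from one.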

How the data were processed

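Tagged proteins were mapped on chromatin by FLAG ChIP-seq. The authors deposited 1 peak list per library, with position, peak name and a score of unstated unit; replicates were not pooled. Peak names carry the caller name MACS, per the file contents; its version, threshold and control are not given in the sources used here. The submitters' processing notes name mm9, CASAVA, Bowtie2 and TopHat, without roles. Positions are mm9, counted from 1. The reference tables were of another build, so no region was assigned to a gene and no sequence is shown, and the planned gene names were not run.

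Peaks sharing at least 1 bp were merged, and the rule was applied to the merged regions. A region's score is the highest score of its peaks in a list. Ranks count all peaks of that list, and tied peaks take the best rank. Distances run from edge to edge. Leading sites are the 5 with the best mean score rank on chromosome 1 and the 5 elsewhere; windows are the 3 of 1 Mb with most sites in each, and sites nearest the width limit and nearest another peak are the 2 on each limit. Shares carry Wilson 95% intervals, and no p-value was computed. Merging, rule and distances were tested on simulated data: 600 of 600 planted sites were found in simulated 9 lists, and 200 of 200 distances equalled a direct search. Alternatives changed the merging distance, overlap, score, width, chromosomes, distance and lists. The sites and comparisons were chosen with earlier results of these data known. Scripts ran under Python 3.11.15 with pandas 2.3.3 and numpy 2.4.6; intervals came from scipy 1.17.1 and plots from matplotlib 3.10.9.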

Additional observations from a re-analysis of the deposited data

How the results depend on the processing

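The share of endogenous-only sites among knock-in regions was higher on chromosome 1 than elsewhere under all 16 alternative settings. Of 116 alternative values, 72 stayed within the interval of the reported value (for counts, within 1.5 times it) and 44 did not. The cause was not tested except where given. A knock-in score of at least 50 left 201 sites on chromosome 1 and 596 elsewhere, with 25.2% of the sites on chromosome 1 and shares of 21.2 and 12.8% of knock-in regions on and off it. The highest scoring 50% of each knock-in list gave 188 and 530 sites, 26.2% of them on chromosome 1, with shares of 21.0 and 12.1%. Fewer peaks enter both settings by construction. Knock-in peaks overlapping reciprocally by 50% gave 24.7% on chromosome 1 and shares of 27.7 and 16.4%. Merging peaks up to 1000 bp apart gave a share of 15.5% off chromosome 1, and 70.8 and 62.6% of sites with another peak within 10 kb on and off chromosome 1. Without a width limit the shares were 30.0 and 16.7%. Without the overexpressed PSPC1 list, 23.4% of sites were on chromosome 1, the shares were 35.6 and 25.3%, and 64.3% of sites off chromosome 1 had a peak within 10 kb. Without the UTP6 list there were 2081 sites off chromosome 1, 26.5% of sites were on it, the shares were 45.1 and 27.3%, and 59.4 and 52.4% had a peak within 10 kb. At a distance of 50 kb, 99.5 and 94.7% had one. Without chromosome 8, an alternative chosen after seeing the data, 31.0% of sites were on chromosome 1. Counting the 6 other proteins without overexpressed PSPC1, also chosen after seeing the data, 65.6% of sites off chromosome 1 had a peak within 10 kb.

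With 1 knock-in library left out in turn, sites on chromosome 1 numbered 2407 to 2460 and those elsewhere 4985 to 6289, since all peaks of the remaining list then counted. Of these 27.7 to 33.0% were on chromosome 1, the shares were 58.4 to 62.8% and 35.7 to 37.0%, and 67.3 to 67.7% and 65.9 to 68.6% had a peak within 10 kb. No paired analysis was possible because every overexpressed protein had 1 list, so no 2 groups of lists share replicate numbers beyond the first. Read depth is unknown, so a site missing from a list may be a site that list could not detect.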
